A study of Homo sapiens with 12 samples.

Results

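The enzymes described here make collagen stable and crosslink it: the lysyl oxidases LOX, LOXL1, LOXL2 and LOXL3, the lysyl hydroxylases PLOD1, PLOD2 and PLOD3, and the prolyl 4-hydroxylase subunits P4HA1, P4HA2 and P4HB. These 10 genes were taken by name, and all 10 were among the 14029 genes measured. They were measured in ES-2, a cell line from a human ovarian cancer, under cisplatin, a platinum compound that damages DNA. The libraries labelled SRMS shRNA (n = 3) came from cells with a hairpin against the tyrosine kinase SRMS, and their reference libraries (n = 3, labelled PLKO, genotype WT) from cells with the control vector. Both groups had 15 µM cisplatin for 8 hours. The labels do not say whether either line was a clone or a pool, how many hairpins were used, or whether replicates were separate cultures, and every p-value therefore rests on between-library spread that may be technical. The series has another 6 libraries in PBS, 3 of each construct, which are not analysed here, so no effect of cisplatin itself was measured.

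Collagen chains are modified in the endoplasmic reticulum before they fold into a triple helix. Prolyl 4-hydroxylase, built from a catalytic α subunit (P4HA1 or P4HA2) and the disulfide isomerase P4HB, makes the hydroxyprolines that keep the helix stable at body temperature, and the PLOD enzymes hydroxylate lysines that later carry sugars and crosslinks. After secretion the lysyl oxidases, which are copper-dependent amine oxidases, turn lysines and hydroxylysines of collagen and elastin into aldehydes that form the crosslinks. LOX, PLOD2 and the α subunits are textbook targets of the hypoxia-inducible factors, which bind DNA at a short element with the core ACGTG, and the hydroxylases need iron, 2-oxoglutarate and oxygen.

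Sequence before the start of LOX and of PLOD2 is shown because both genes hold that core there, and in these libraries LOX was higher and PLOD2 lower with the hairpin. The stretches are those parts of the 250 bases before the RefSeq start (GRCh38.p14) that lie in no exon of GENCODE release 29, 149 bases for LOX (chr5:122078361-122078509, minus strand) and 250 bases for PLOD2 (chr3:146161185-146161434, minus strand). They are written 5′ to 3′ in lower case, with each ACGTG, on either strand, in capitals.
LOX: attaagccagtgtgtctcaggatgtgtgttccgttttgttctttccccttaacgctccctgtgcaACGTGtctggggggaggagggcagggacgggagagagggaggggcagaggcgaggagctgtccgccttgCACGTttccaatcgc
PLOD2: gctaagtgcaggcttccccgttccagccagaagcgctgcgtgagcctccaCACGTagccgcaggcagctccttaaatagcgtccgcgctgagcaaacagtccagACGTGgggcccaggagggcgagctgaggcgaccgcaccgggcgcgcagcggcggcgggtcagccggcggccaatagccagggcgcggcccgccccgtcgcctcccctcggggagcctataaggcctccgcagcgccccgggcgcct
The LOX stretch holds the core 2 times, and the PLOD2 stretch 2 times. Over the whole 250 bases before the most upstream RefSeq start, the core was found in 3 of the 9 members with an entry, LOX (4 times), PLOD2 (2 times) and P4HA1 (1 time), and in 18.5% of all 35116 promoter entries. The AP-1 site TGANTCA was found in 0 of the 9, against 6.57% of all entries. Over the same 250 bases GGGCGG, the GC box, was found in 5 of the 9, against 42.6% of all entries. These are letter matches on both strands, not measured sites.

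SRMS, the gene that the hairpin targets, was no lower in hairpin libraries. In scaled CPM (reads per library scaled as for CPM by the authors, the unit of all levels here) it had 0.328, 1.07 and 0.863 with the hairpin and 0.0669, 0.306 and 0.819 with the vector, from 2 to 47 reads per library. The log2 fold change was 0.52 (SE 0.303, limma adjusted p = 0.168), and the limma adjusted p was 0.00782 once replicate number was blocked, toward higher SRMS. With length and GC also removed the blocked fit gave 0.25 (limma adjusted p = 0.186). Leaving out 1 library moved the difference between 0.23 (without vector replicate 1, limma adjusted p = 0.527) and 0.84 (without vector replicate 3, limma adjusted p = 0.0281). It was 0.33 without SRMS shRNA replicate 2 (limma adjusted p = 0.442) and 0.79 without SRMS shRNA replicate 1 (limma adjusted p = 0.0245). Directions are therefore those of the libraries as labelled. The recovered reads came to 28009232 to 38072051 with the hairpin and 29072793 to 56855428 with the vector. Replicate 1 of each construct stood apart from replicates 2 and 3. Markers of ovarian carcinoma and of the cell line moved both ways. The keratin KRT7 averaged 543 ± 32.8 with the hairpin and 697 ± 28.5 with the vector (SD, n = 3 each), and WT1, ARID1A and CDH2 were also lower, at -0.80, -0.91 and -0.17. The keratin KRT18 averaged 1015 ± 6.27 with the hairpin and 875 ± 5.02 with the vector, and the mesenchymal filament VIM 6575 ± 472 with the hairpin and 5387 ± 326 with the vector, but with quantile scaling neither passed (0.0022 and -0.047), while the Müllerian factor PAX8 had 4 to 10 reads per library, and EPCAM, CDH1, MUC16 and KRT19 are not analysed here. By limma 3 of the 8 measured markers rose and 4 fell, against 26.6% and 30.2% of all genes.

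LOX had the largest difference of the 10. LOX, the founding lysyl oxidase (ENSG00000113083, chromosome 5, 122063195 to 122078360, minus strand), had 561, 615 and 638 scaled CPM in the libraries labelled SRMS shRNA, against 343, 393 and 378 with the vector. Every hairpin library lay above every vector library. The means were 605 ± 39.4 with the hairpin and 371 ± 25.7 with the vector (SD, n = 3 each), a ratio of 1.63. On the log2(value + 0.5) scale the difference was 0.70 (SE 0.0579, 95% interval 0.58 to 0.83, limma adjusted p = 5.31e-06), and 7.18% of all genes differed by at least as much in either direction. In same-numbered replicates the difference was 0.71, 0.65 and 0.75.

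LOXL3, a lysyl oxidase with scavenger receptor domains (ENSG00000115318, chromosome 2, 74532414 to 74555690, minus strand), rose as well, from a much lower level. It had 25.8, 23.9 and 24.6 with the hairpin, against 17.7, 19.5 and 16.8 with the vector, from 529 to 965 reads per library, with no overlap between the groups. Its log2 fold change was 0.45 (SE 0.067, 95% interval 0.30 to 0.60, limma adjusted p = 0.000261).

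LOXL2, whose protein also has scavenger receptor domains, had 183, 183 and 188 with the hairpin and 191, 189 and 191 with the vector. The groups did not overlap but lay close, with a log2 fold change of -0.05 (95% interval -0.12 to 0.02, limma adjusted p = 0.229). LOXL2 was called higher with the libraries aligned on their median (0.11, limma adjusted p = 0.0102) and lower with quantile scaling (-0.099, limma adjusted p = 0.0241). LOXL1, which is known for its part in elastic fibre upkeep, had 60.1, 72.7 and 73.2 with the hairpin and 68.1, 82.9 and 82.4 with the vector, and replicate 1 was the lowest in each group. The groups overlapped, at -0.18 (SE 0.0891, 95% interval -0.38 to 0.02, limma adjusted p = 0.11). The same-numbered differences were -0.18, -0.19 and -0.17, and blocked on replicate number LOXL1 was called lower (limma adjusted p = 2.25e-05). Without vector replicate 1 it was -0.27 (limma adjusted p = 0.0172), without SRMS shRNA replicate 1 it was -0.086 (limma adjusted p = 0.316), and with median scaling -0.019 (limma adjusted p = 0.87).

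**Figure D1:**
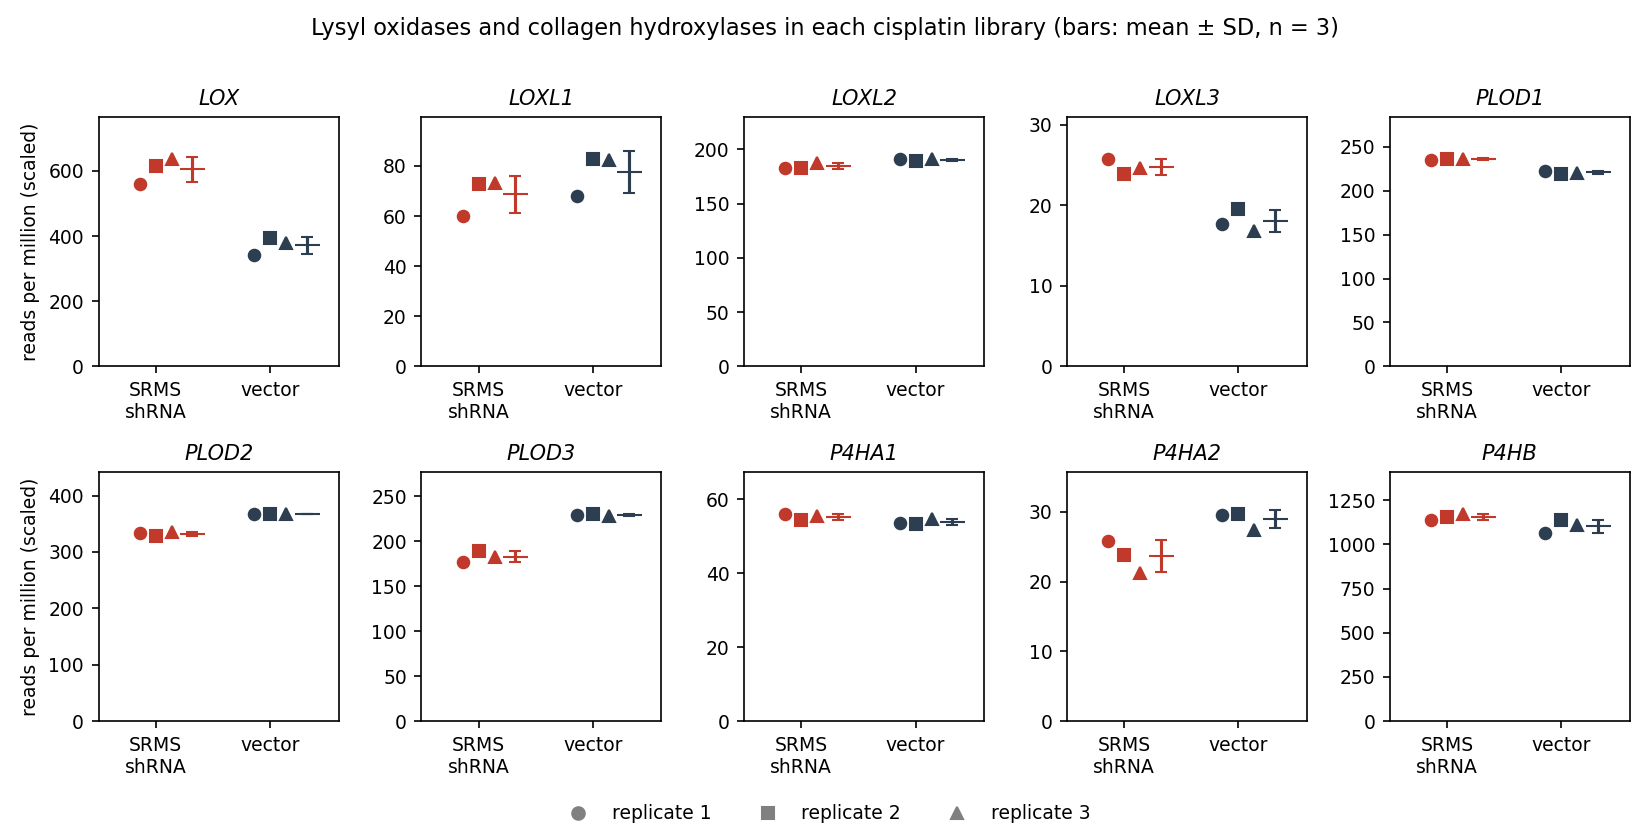
Scaled CPM (linear axis from 0) of each enzyme gene, 1 panel a gene, with the 3 libraries labelled SRMS shRNA in red at left and the 3 vector libraries in dark blue at right; marker shape gives the replicate and the bar the mean ± SD. LOX and LOXL3 stand clear above the vector libraries and PLOD3 below them, while P4HA1, P4HB and LOXL1 overlap.

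The lysyl hydroxylases moved in both directions, PLOD3 down, PLOD2 slightly down and PLOD1 slightly up. PLOD3, which hydroxylates lysines and also adds sugars to them (ENSG00000106397, chromosome 7, 101205977 to 101218420, minus strand), had 176, 189 and 183 with the hairpin, against 230, 231 and 228 with the vector. Its mean fell to 183 ± 6.35 in hairpin libraries, against 229 ± 1.13 in vector libraries (SD, n = 3 each). This is a log2 fold change of -0.33 (SE 0.0351, 95% interval -0.41 to -0.25, limma adjusted p = 3e-05).

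PLOD2, known for hydroxylating the telopeptide lysines that give stable crosslinks, had 333, 328 and 335 with the hairpin, against 367, 368 and 368 with the vector. It fell by 0.15 on the log2 scale (SE 0.0295, limma adjusted p = 0.0018), but with the libraries aligned on their median it stood at 0.014 (limma adjusted p = 0.692). PLOD1, which acts on lysines of the helix, had 235, 237 and 237 with the hairpin, against 223, 219 and 220 with the vector. It rose by 0.10 (SE 0.0301, 95% interval 0.03 to 0.16, limma adjusted p = 0.0195). The limma adjusted p of PLOD1 was 0.0548 and 0.0628 without SRMS shRNA replicates 2 and 3, 0.08 and 0.0708 without vector replicates 2 and 3, and 0.337 with quantile scaling, where the difference was 0.037. Both changes were small, since the means of PLOD2 and PLOD1 differed by -9.63% and 6.89%.

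Of the prolyl 4-hydroxylase subunits only P4HA2 passed the test. P4HA2 (ENSG00000072682, chromosome 5, 132191838 to 132295315, minus strand) had 25.8, 23.9 and 21.3 with the hairpin, against 29.6, 29.8 and 27.4 with the vector, so each hairpin library was below each vector library. Its log2 fold change was -0.29 (SE 0.0723, 95% interval -0.45 to -0.13, limma adjusted p = 0.00631), against -0.13 (limma adjusted p = 0.137) with median and -0.15 (limma adjusted p = 0.0903) with quantile scaling. P4HA1, the more abundant α subunit, had 56.1, 54.4 and 55.3 with the hairpin and 53.6, 53.3 and 54.7 with the vector. The groups overlapped, at 0.04 (95% interval -0.05 to 0.12, limma adjusted p = 0.45), and P4HA1 was called higher with median scaling (0.20, limma adjusted p = 0.00129) and with quantile scaling (0.11, limma adjusted p = 0.0407). P4HB, which also serves as a general disulfide isomerase, had 1136, 1156 and 1174 with the hairpin and 1063, 1136 and 1109 with the vector, at 0.07 (95% interval -0.01 to 0.15, limma adjusted p = 0.128). Blocked on replicate number P4HB was called higher (limma adjusted p = 0.0033), with median scaling it stood at 0.23 (limma adjusted p = 0.000488), and with the block and length and GC removed at 0.0034 (limma adjusted p = 0.875).

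Over the 10 genes 3 rose, 3 fell and 4 did not pass the test, at a limma adjusted p under 0.05 over all 14029 genes. Of all genes tested 56.8% were called, 26.6% higher and 30.2% lower, so the members' share is near that background. In 7 members, 3 above and 4 below, no hairpin value fell among the vector values, against 62.7% of all genes, 29.7% above and 32.9% below. The median log2 fold change was -0.0049 for the members, 0.16 with median and -0.077 with quantile scaling, and 0.0031 for all genes. With the libraries aligned on their median, which moves the median of all genes to 0.16, 6 members were higher and 1 lower, against 44.6% and 17.9% of all genes (62.5% in all). With the replicate block 4 were higher and 4 lower, against 31% and 34.3% of all genes (65.3% in all).

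**Figure D2:**
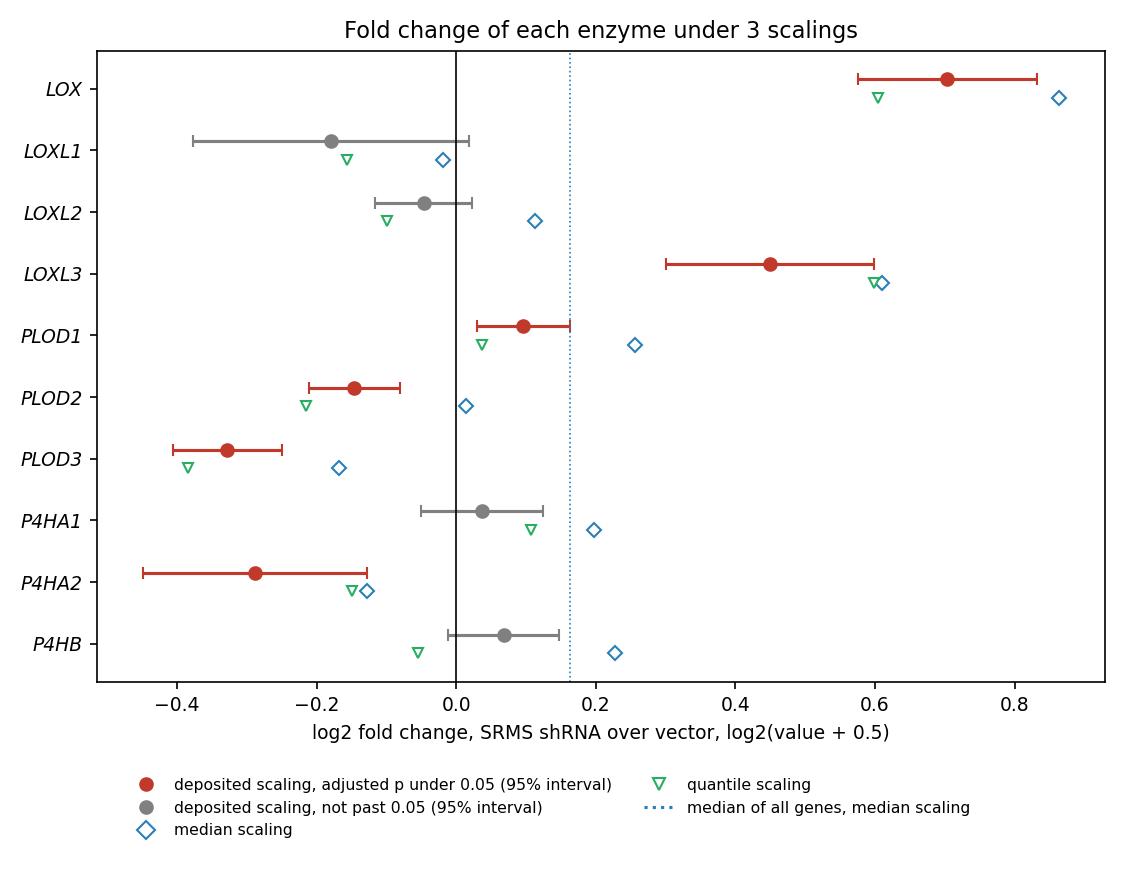
Log2 fold change, SRMS shRNA over vector, of each enzyme with the deposited scaling (circles with 95% interval, red where the limma adjusted p is under 0.05), with median scaling (open diamonds) and with quantile scaling (open triangles); the dotted line is the median of all genes with median scaling, 0.16. LOX and LOXL3 lie to the right of 0 and PLOD3 to the left under all 3, while the markers of LOXL2, PLOD2 and P4HB fall on both sides of 0.

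Ratios between enzymes of 1 family do not depend on the scaling factor of a library, and 6 of the 7 ratios tested did not overlap between the groups. Of all single genes 62.7% did not overlap, and the share for ratios of other gene pairs was not computed. Several of the ratios share LOX or PLOD1 and so are not independent. LOXL1/LOX averaged 0.113 ± 0.00574 with the hairpin and 0.209 ± 0.00976 with the vector (SD, n = 3 each), a log2 difference of -0.88. LOXL2/LOX was 0.326, 0.297 and 0.294 with the hairpin, against 0.558, 0.482 and 0.505 with the vector, a log2 difference of -0.75. LOX thus took a larger part of the lysyl oxidase transcripts in every hairpin library. LOXL3/LOX overlapped, at 0.0411 ± 0.00422 with the hairpin and 0.0486 ± 0.00368 with the vector.

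Within the hydroxylases, PLOD3/PLOD1 was 0.75, 0.799 and 0.773 with the hairpin, against 1.03, 1.05 and 1.04 with the vector, a log2 difference of -0.42. PLOD2/PLOD1 averaged 1.41 ± 0.0165 with the hairpin and 1.66 ± 0.0157 with the vector. With the deposited values PLOD1 was thus higher relative to both of its relatives in every hairpin library. The transcripts of PLOD2 and PLOD1 differ in GC, at 37.6% and 58.6%. In the replicate block fit with length and GC removed PLOD2 stood at 0.016 and PLOD1 at 0.066. Ratios corrected for length and GC were not computed. P4HA1/P4HA2 averaged 2.35 ± 0.222 with the hairpin and 1.86 ± 0.111 with the vector, a log2 difference of 0.32. The ratio of P4HB to the sum of the α subunits averaged 14.7 ± 0.732 with the hairpin and 13.3 ± 0.484 with the vector, a log2 difference of 0.14. Each of the 6 ratios without overlap had a two-sided exact permutation p of 0.1, the smallest that 3 against 3 allows, and 0.117 adjusted over the 7, and LOXL3/LOX had an exact permutation p of 0.2.

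**Figure D3:**
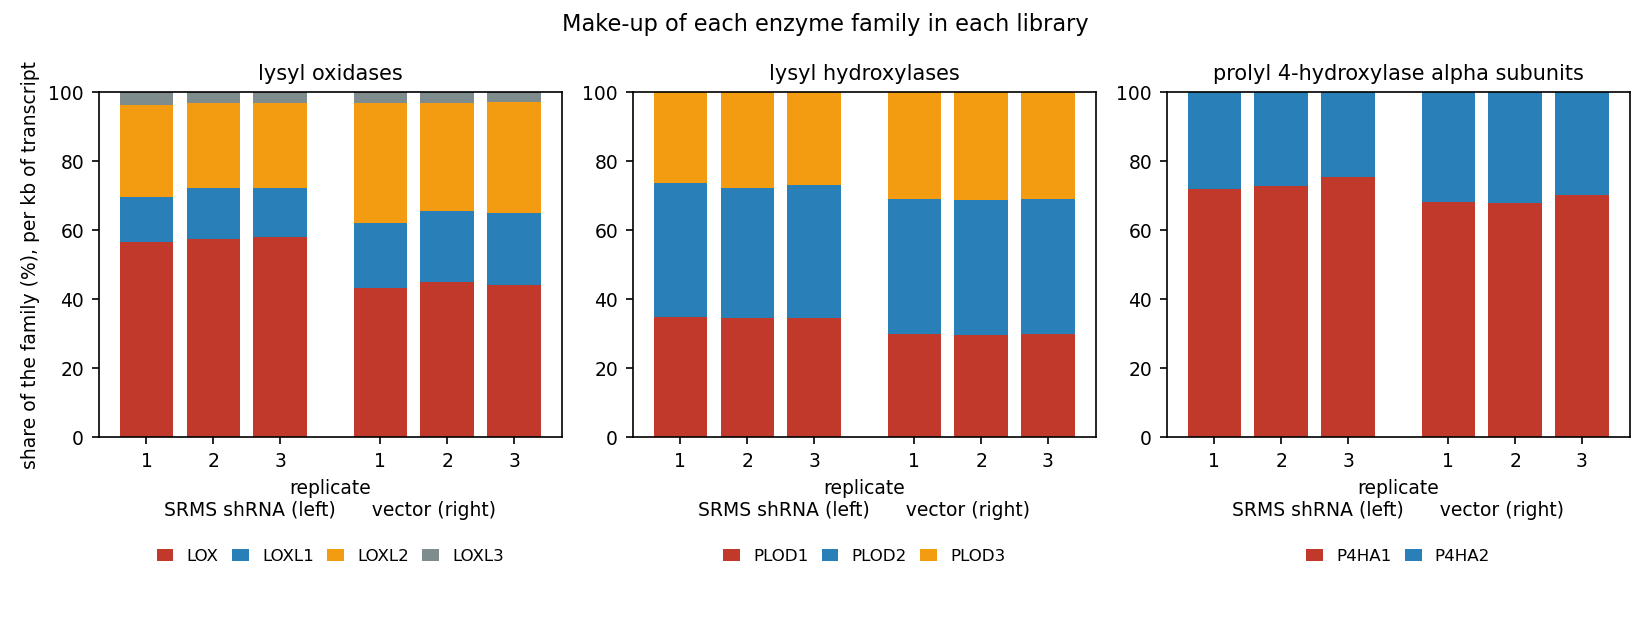
Share of each family's reads per kilobase of transcript (percent, stacked to 100) in the 3 libraries labelled SRMS shRNA (left of each panel) and the 3 vector libraries (right). LOX fills 57.3% of the lysyl oxidase bar on average with the hairpin and 44.2% with the vector, and PLOD3 27% and 31.2% of the lysyl hydroxylase bar.

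Compared per kilobase of transcript, with 1 transcript a gene, the enzymes spanned a wide range of levels. P4HB stood first in both groups, at 444 ± 7.2 scaled CPM per kilobase with the hairpin and 424 ± 14.3 with the vector. LOX came next in hairpin libraries at 118 ± 7.72, ahead of PLOD2 at 89 ± 0.909, PLOD1 at 80.3 ± 0.28 and PLOD3 at 62.6 ± 2.17. In vector libraries PLOD2 came next at 98.5 ± 0.138, then PLOD3 at 78.6 ± 0.388 and PLOD1 at 75.1 ± 0.607, with LOX at 72.7 ± 5.04, which overlapped PLOD1. LOXL2, LOXL1 and P4HA1 followed in both groups, at 52 ± 0.762, 29.2 ± 3.17 and 19.4 ± 0.299 with the hairpin and 53.7 ± 0.28, 33.1 ± 3.57 and 18.9 ± 0.258 with the vector. LOXL3 and P4HA2 were lowest. They overlapped at 7.07 ± 0.279 and 7.07 ± 0.68 with the hairpin, and P4HA2 was above LOXL3 with the vector, at 8.64 ± 0.386 and 5.14 ± 0.393. The transcript used for LOX is the longest of the 10, at 5102 nt, and other transcripts of these genes were not weighed.

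Some exons of the members overlap other genes, mostly on the opposite strand. The library kit keeps the strand, but the strand setting of the counting is not given in the sources used here, so shared reads cannot be told apart. PLOD3 shares 429 of its 5671 exon bases with ZNHIT1, which moved the other way, at 113 ± 9.03 with the hairpin and 81.4 ± 3.26 with the vector. LOX shares 138 of 5547 with SRFBP1, which was also opposite, at 16.1 ± 1.15 with the hairpin and 22.4 ± 0.162 with the vector. LOXL3 shares 625 of 4363 with HTRA2, at 47.2 ± 0.837 with the hairpin and 45.5 ± 0.662 with the vector, and 216 with DOK1, which rose alongside it, at 7.74 ± 0.718 with the hairpin and 5.54 ± 0.362 with the vector. On the same strand LOXL2 shares 120 of 5707 with ENTPD4, at 42.4 ± 3.27 with the hairpin and 45.1 ± 1.74 with the vector. LOXL1 and P4HA2 also overlap the antisense genes LOXL1-AS1 and P4HA2-AS1, and P4HB shares 529 of 5303 with the antisense gene AC145207.3. The part of these overlaps in the results was not tested.

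Genes that act beside these enzymes moved in both directions as well. Of the 10 measured relatives, among them the prolyl 3-hydroxylases and the collagen galactosyltransferases, 3 rose and 1 fell by limma (median log2 fold change 0.077, and -0.0016 with quantile scaling). With median scaling 7 rose and 1 fell, and with the replicate block 5 and 1. Of all genes 26.6% rose and 30.2% fell, 44.6% and 17.9% with median scaling, and 31% and 34.3% with the block. PPIB, the cyclophilin of the prolyl 3-hydroxylase complex, rose to 1235 ± 19.3 with the hairpin, against 902 ± 24.8 with the vector (log2 fold change 0.45, limma adjusted p = 3e-06). P3H2, a prolyl 3-hydroxylase, fell to 18.9 ± 0.427 with the hairpin, against 28.1 ± 0.0964 with the vector (-0.56, limma adjusted p = 1.06e-05). P4HA3, the remaining α subunit, averaged 1.46 ± 0.291 with the hairpin and 1.36 ± 0.276 with the vector, far under P4HA1 and P4HA2, and LOXL4 is not analysed here.

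Of 22 genes for collagen folding and export, 6 rose and 8 fell (median 0.03, and -0.098 with quantile scaling), and with median scaling 13 rose and 5 fell. With the replicate block 10 rose and 9 fell, and with length and GC also removed 11 rose and 6 fell. Of all genes 26.6% rose and 30.2% fell, 44.6% and 17.9% with median scaling, and 31% and 34.3% with the block. SERPINH1, the collagen-specific chaperone HSP47, fell steeply, with 175, 178 and 172 in hairpin libraries, against 347, 354 and 351 in vector libraries. Its log2 fold change was -1 (limma adjusted p = 2.57e-08), a larger change than that of any of the 10 enzymes. TRAM2, a translocon component linked to collagen I synthesis, fell to 7.74 ± 0.621 with the hairpin, against 16.8 ± 0.245 with the vector (-1.07, limma adjusted p = 2.06e-06). KLHL12 and SEC24D, which serve the large carriers that take procollagen out of the endoplasmic reticulum, were at -0.40 and -0.35, both past the test. SEC13, another export gene of the list, went the other way, at 0.19 (limma adjusted p = 0.00204). It had no call in the replicate block fit with length and GC removed. FKBP7, a prolyl isomerase of the endoplasmic reticulum, rose to 24.5 ± 2.06 with the hairpin, against 14.7 ± 0.873 with the vector (0.72, limma adjusted p = 2.51e-05), and PDIA6, a disulfide isomerase, had 0.32.

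Among 12 genes for propeptide removal and oxidase activation, 7 rose and 1 fell (median 0.26), against 26.6% and 30.2% of all genes. With median scaling 9 rose and 1 fell, against 44.6% and 17.9% of all genes. With the replicate block 8 rose and 1 fell, against 31% and 34.3% of all genes, and with length and GC also removed 6 and 2. BMP1, the proteinase that removes the collagen C-propeptide and activates LOX, rose to 42.7 ± 0.6 with the hairpin, against 33.4 ± 1.04 with the vector (0.35, limma adjusted p = 0.000105). SPARC, a collagen-binding matrix protein, had 284, 293 and 287 with the hairpin, against 177, 193 and 188 with the vector (0.63, limma adjusted p = 1.05e-06). PCOLCE2, an enhancer of C-propeptide removal, was at 0.41, FN1, the fibronectin that binds BMP1 and LOX, at 0.27 and ATOX1, a copper chaperone, at 0.43, all higher by limma. ADAMTS2, which removes the N-propeptide, was the gene that fell, to 34.9 ± 2.62 with the hairpin, against 45.2 ± 0.804 with the vector (-0.37).

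**Figure D4:**
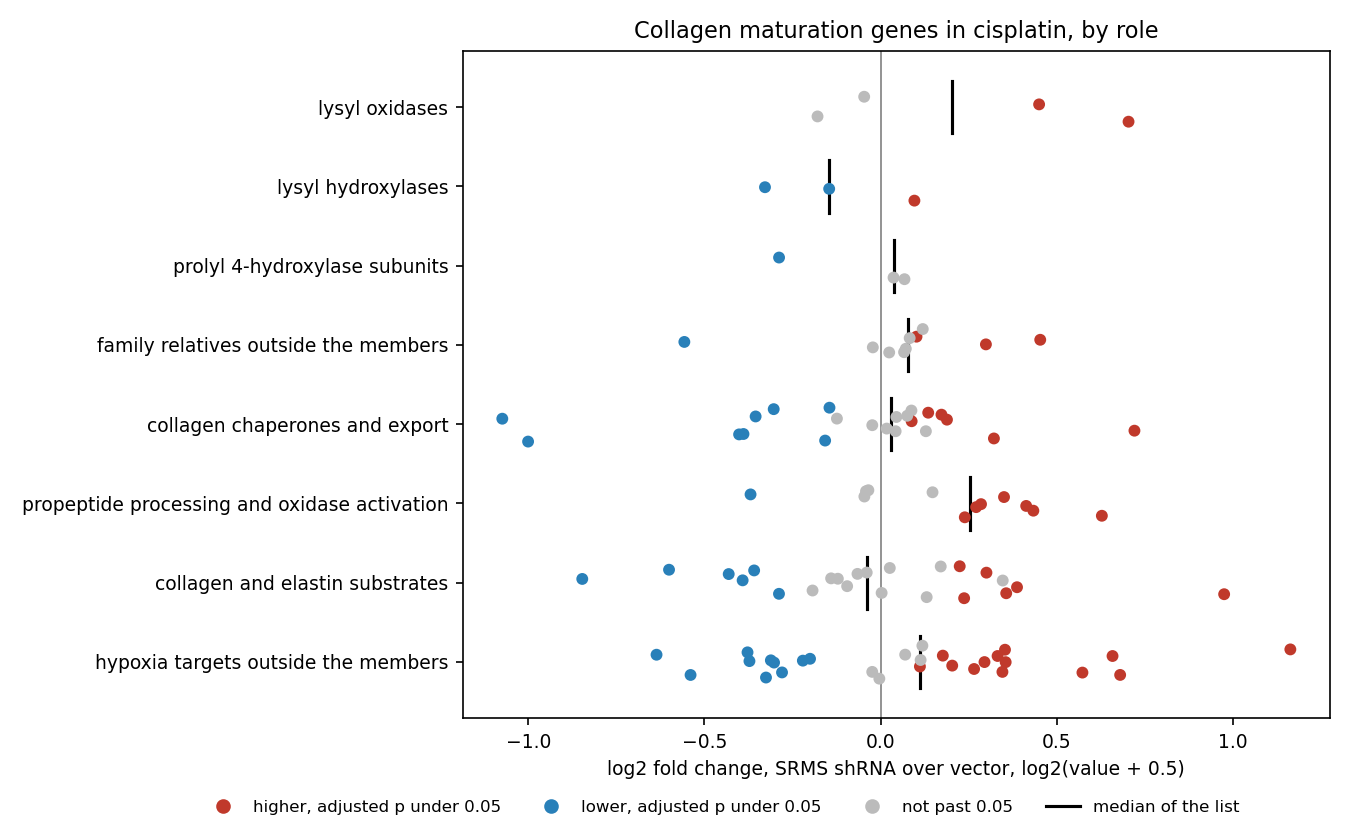
Log2 fold change, SRMS shRNA over vector, of every measured gene of the enzyme families and of the lists around them; points are genes, red for higher and blue for lower at a limma adjusted p under 0.05, grey otherwise, and the black bar is the list's median. LOX at 0.70 and LOXL3 at 0.45 lie right of every other enzyme of the 10, and most genes of propeptide processing and oxidase activation lie right of 0.

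The substrates of these enzymes moved both ways. Of 23 collagen and elastin genes 6 rose and 6 fell (median -0.039), against 26.6% and 30.2% of all genes. With median scaling, where the median was 0.12, 11 rose and 5 fell, against 44.6% and 17.9% of all genes. With the replicate block 6 rose and 8 fell, against 31% and 34.3% of all genes, and with length and GC also removed 10 and 5. COL1A1, the α1 chain of collagen I, fell to 816 ± 3.24 with the hairpin, against 1238 ± 1.77 with the vector (-0.60, limma adjusted p = 2.96e-07). COL1A2, the partner chain, had 0 to 5 reads with the hairpin and 5 to 7 with the vector, so its level was near nil in both groups. COL12A1 fell to 139 ± 10.1 with the hairpin, against 250 ± 12.7 with the vector (-0.85), and COL6A3 was at -0.36. COL7A1, the anchoring fibril collagen, rose to 14.9 ± 1.15 with the hairpin, against 7.37 ± 1.16 with the vector (0.97, limma adjusted p = 3.46e-05), and COL4A2 of basement membranes was at 0.36. ELN, elastin, had 9 to 13 reads with the hairpin and 7 to 16 with the vector.

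Of 28 hypoxia targets other than the 10 enzymes, 13 rose and 10 fell (median 0.11), against 26.6% and 30.2% of all genes. With median scaling 18 rose and 5 fell, against 44.6% and 17.9% of all genes. ADM, the peptide adrenomedullin, rose to 8.78 ± 0.633 with the hairpin, against 3.65 ± 0.248 with the vector (1.16, limma adjusted p = 4.43e-06), and NDRG1 had 0.68. PFKFB3, a regulator of glycolysis, fell to 22.9 ± 0.509 with the hairpin, against 35.8 ± 1.87 with the vector (-0.64, limma adjusted p = 6.65e-06). Of the enzymes that are textbook targets, LOX was higher, PLOD2 and P4HA2 lower and P4HA1 without a call. With median scaling LOX stayed higher and P4HA1 was called higher (0.20, limma adjusted p = 0.00129). PLOD2 (0.014, limma adjusted p = 0.692) and P4HA2 (-0.13, limma adjusted p = 0.137) then had no call. The part of the hypoxia-inducible factors in these values was not tested.

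Markers of other cell types were looked at as well. Of 9 fibroblast markers 3 rose and 2 fell, against 26.6% and 30.2% of all genes. Among the 9 are the collagens COL1A1, COL1A2 and COL3A1 also counted above. TAGLN (29 to 70 reads per library), FAP and THY1 rose, by 0.94, 0.68 and 0.23 on the log2 scale. COL1A1 and PDGFRA were lower, at -0.60 and -0.34. The sum of the 9 ran from 964 to 972 with the hairpin and from 1366 to 1372 with the vector, most of it COL1A1, and DCN, LUM and POSTN are not analysed here. Of 6 leukocyte markers 3 rose and 0 fell, against 26.6% and 30.2% of all genes. Their sum was 61.6 to 66 with the hairpin and 50.2 to 52.9 with the vector, mostly CD68. CD14, a monocyte marker, rose to 3.24 ± 0.37 with the hairpin, against 0.879 ± 0.197 with the vector (1.45, limma adjusted p = 1.23e-05), while NKG7 had 4 to 8 reads with the hairpin and 3 to 4 with the vector. Of 3 endothelial markers 0 rose and 1, CDH5, fell, against 26.6% and 30.2% of all genes. With median scaling 1 of the 3 rose and 1 fell, against 44.6% and 17.9% of all genes. The sum of the 3 was 5.88 to 8.36 with the hairpin and 14.8 to 16.8 with the vector, mostly CDH5. The part of all these cell type markers in the results was not tested.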

How the data were processed

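Stranded TruSeq libraries of poly(A) RNA were read as paired ends on a NovaSeq instrument, per the labels' protocols. The submitters' processing notes name FastQC, cutadapt, HISAT2, StringTie, edgeR and GRCh38. Tool versions, settings and any expression filter are not given in the sources used. What the authors deposited is a linear signal, CPM-like values made with a normalized library total, although their table's name says log CPM. Whole reads were recovered from the smallest step of each library; in each, at least 99.99% of values lay within 0.1 of a whole read. Of 14042 rows, the 13 for Y copies of pseudoautosomal genes were left out. Identifiers, coordinates and lengths are from GENCODE release 29, with the longest coding transcript, principal by APPRIS where marked; 14007 genes had a symbol.

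limma 3.58.1 (R 4.3.3) with a mean-variance trend was fitted to log2(value + 0.5) of the 6 cisplatin libraries without a replicate block, with Benjamini-Hochberg adjustment over all 14029 genes. This scale understates changes of low genes. The design had allowed for log2 values; a linear signal took the stated pseudocount. The count tests were edgeR 4.0.16 (quasi-likelihood) and DESeq2 1.42.0 on the recovered reads. Fits were tested on simulated counts in which few genes changed and replicates shared no effect. Those settings differ from these data, so the simulation does not bear on the calls here. The members and lists were chosen with earlier results of these data known. Named were all members, SRMS and up to 3 genes per list and direction with the smallest adjusted p; the text gives part of these and further genes chosen after their values were seen, such as KLHL12, SEC24D, FN1, ATOX1 and the low COL1A2. Also named were the 3 genes closest to the leading member of each enzyme family.

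Replicates 2 and 3 had a chi-square per gene of 1.65 for SRMS shRNA and 1.79 for the vector (genes of 200 to 5000 reads in the pair). Pairs with replicate 1 had 3.55 to 5.07. All 3 were kept, and whether replicates 2 and 3 are independent cannot be told from these values. With replicates 2 and 3 averaged, 2781 genes were called higher and 3287 lower, against 3736 and 4233. PLOD1 then had no call (limma adjusted p = 0.172), and the other called members kept theirs. Across genes, the departures of replicates 1, 2 and 3 from their group means gave r of 0.309, 0.106 and 0.12 between constructs. All exceed 0.1, so the fit with the replicate block is given beside results whose call it changes, and all other calls and counts come from the fit without it. The labels do not say what a number shares and replicate 2 of 1 construct correlated as well with replicate 3 of the other, with r of 0.114 and 0.113.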

Additional observations from a re-analysis of the deposited data

How the results depend on the processing

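LOX, LOXL3 and PLOD3 kept their direction and call in all 19 alternatives run, with log2 fold changes from 0.60 to 0.93, 0.40 to 0.61 and -0.38 to -0.17. PLOD1 kept its call in 12, PLOD2 in 17 and P4HA2 in 17. With the libraries aligned on their median, 6254 genes were higher and 2510 lower, against 3736 and 4233. The members then had 6 higher and 1 lower, against 3 and 3, and the genes of the lists around them 68 higher, against 40. LOXL2 turned from -0.05 to 0.11 with median scaling. PLOD2 turned from -0.15 to 0.014 with median scaling, and to 0.016 in the replicate block fit corrected for length and GC. P4HB turned from 0.07 to -0.055 with quantile scaling. The cause was not tested. The replicate block changed the calls of LOXL1 and P4HB among the members and no other member's; with the block the 7 ratios kept their differences by construction, all 3 pairs moved the same way for each, and the exact sign-flip permutation p was 0.25, the smallest that 3 pairs allow. edgeR called 3893 genes higher and 4165 lower on the recovered reads, and DESeq2 3585 and 3790. edgeR with the block was added after seeing the data. Member genes had 529 to 63619 reads per library; for some, such as PLOD2 with the vector, the spread between libraries is under the counting error.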

Other observations

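Collagen hydroxylases belong to the 2-oxoglutarate dioxygenases, and in a chosen list of others of that class more were lower than higher. The prolyl 3-hydroxylases, P4HTM and P4HA3 were counted with the relatives above and are not on this list. Of 30 measured, 5 rose and 17 fell in the libraries labelled SRMS shRNA (median log2 fold change -0.28), against 26.6% and 30.2% of all genes. With median scaling 10 rose and 12 fell, against 44.6% and 17.9% of all genes. With the replicate block 6 rose and 18 fell, against 31% and 34.3% of all genes. With length and GC also removed 6 rose and 16 fell (median -0.14), against 4305 and 4240 of all 14029 genes. ALKBH5, an RNA demethylase, fell to 31.5 ± 0.482 with the hairpin, against 77.3 ± 1.92 with the vector (SD, n = 3 each; log2 fold change -1.28, limma adjusted p = 2.75e-08). TET3, which oxidises methylcytosine, fell to 2.96 ± 0.165 with the hairpin, against 6.72 ± 0.497 with the vector (-1.06), and the histone demethylase KDM4A to 28.7 ± 2.79, against 46.9 ± 0.943 with the vector (-0.70). ASPH, an aspartyl hydroxylase of the endoplasmic reticulum, rose to 436 ± 11.9 with the hairpin, against 360.2 ± 4.48 with the vector (0.28), and OGFOD3 was at 0.39. EGLN1, the main oxygen-sensing prolyl hydroxylase of the hypoxia-inducible factors, was at -0.37.

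Over the 6 libraries, the genes whose log2 values lay closest to those of LOX were ID2, SRR and H2BC9 (Pearson r of 0.9996, 0.9996 and 0.9995), among 11352 genes compared. For PLOD3 they were PIAS2, MGRN1 and DCLRE1B (r of 0.999, 0.998 and 0.998), and for P4HA2 PLA2G4A, DNAJC14 and PPP1R8 (r of 0.994, 0.994 and 0.992). With 2 groups of 3 such values are easily high, since 1341 genes had an r over 0.95 with LOX and 264 with P4HA2. H2BC9 is one of many near-identical histone genes, so its own value is uncertain.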
